A study of Mus musculus with 8 samples.

Results

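The genes described here are 42 genes of chromosome duplication and division, 25 of mitosis and 17 of DNA replication, among 31053 genes in the count tables. They were chosen by name for what they do in the cell cycle, and all 42 had UMIs in the CD4 T cells of the study. The study profiled single cells of the mouse colonic lamina propria after enrichment for CD4+ T cells, with 10x Genomics 3' libraries. It compared wildtype C57BL/6 mice with mice of a mutant genotype, named RORgtS182A in the series text, RORgtS182 in the treatment protocol and S203AKI in the sample names. All mice were 10 to 12 weeks old and specific pathogen-free. Untreated mice drank regular water for 10 days. Treated mice drank 2% dextran sulfate sodium (DSS), a polymer that injures the colon epithelium, for 7 days and regular water for 3 days, and all were harvested on day 10. Each of the 4 groups (wildtype untreated, mutant untreated, wildtype DSS, mutant DSS) had 2 libraries, which the design text calls independent biological replicates. In the lists of values below, the libraries stand in that order of groups. The names of the libraries do not say how many animals each held, and p-values measure the spread between libraries only. The counted 3' ends do not read the altered codon, so the genotype labels could not be checked from them.

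A dividing cell first licenses its replication origins by loading the helicase of Mcm2 to Mcm7 with Cdt1, then copies its DNA with the sliding clamp Pcna and with nucleotides made by ribonucleotide reductase, and finally separates its chromosomes under cyclin B and Cdk1. Most replication genes are transcribed from late G1 under E2F factors, and most mitosis genes in G2 under complexes that read CHR and CCAAT elements near the transcription start. In the gut, T cells activated by antigen, effector regulatory T cells (Tregs) and germinal centre B cells are known to divide.

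The promoters of the mitosis and replication genes differed in these letters. RefSeq promoters (GRCm38.p6; 250 bases before to 50 after the start) were matched by symbol for 34 of the 42 genes. Both strands were searched for the CHR letters TTTGAA and their variant TTTAAA, and for the CCAAT box. The E2F-type letters searched were TTGGCGC and the variants with other middle bases, namely TTCGCGC and also TTCCCGC and lastly TTGCCGC. On the other strand the first of these can overlap a CCAAT box. CHR letters were present in 18 of 20 mitosis promoters (90%), in 6 of 14 replication promoters (42.9%) and in 30.6% of all 27025 genes with a promoter. CCAAT was present in 18 of 20 mitosis genes and in 10 of 14 replication genes, against 41.1% of all genes. E2F-type letters were present in 3 of 20 mitosis genes (15%), in 10 of 14 replication genes (71.4%) and in 10.9% of all genes. CHR and CCAAT occurred together in 85% of mitosis genes, 35.7% of replication genes and 12.2% of all genes. A match is a description of the letters in this window only.

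The stretches of 120 bases before the start are shown for 5 mitosis genes and 3 replication genes, because they place both kinds of element side by side for genes described below. They lie on GRCm38.p6 at chr13:100786487-100786606 (Ccnb1, minus strand), chr11:99024190-99024309 (Top2a, minus), chr10:69352913-69353032 (Cdk1, minus), chr2:164769809-164769928 (Ube2c, plus), chr19:37376262-37376381 (Kif11, plus), chr7:102441575-102441694 (Rrm1, plus), chr1:128359706-128359825 (Mcm6, minus) and chr19:38930870-38930989 (Hells, plus). Each is written 5' to 3' on the strand of its gene, and capitals mark every CHR, CCAAT or E2F-type match on either strand.
Ccnb1: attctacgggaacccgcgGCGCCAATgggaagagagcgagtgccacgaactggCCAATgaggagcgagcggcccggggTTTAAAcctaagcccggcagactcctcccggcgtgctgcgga
Top2a: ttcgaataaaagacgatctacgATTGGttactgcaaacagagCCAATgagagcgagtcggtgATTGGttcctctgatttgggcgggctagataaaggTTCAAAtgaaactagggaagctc
Cdk1: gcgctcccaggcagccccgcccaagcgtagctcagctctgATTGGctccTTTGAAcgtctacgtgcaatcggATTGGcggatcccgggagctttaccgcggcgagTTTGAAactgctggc
Ube2c: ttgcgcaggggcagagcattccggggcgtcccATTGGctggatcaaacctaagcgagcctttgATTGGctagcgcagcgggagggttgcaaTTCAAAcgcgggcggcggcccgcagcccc
Kif11: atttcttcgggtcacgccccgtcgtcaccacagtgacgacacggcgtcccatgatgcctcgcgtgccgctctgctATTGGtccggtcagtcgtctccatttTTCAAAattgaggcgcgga
Rrm1: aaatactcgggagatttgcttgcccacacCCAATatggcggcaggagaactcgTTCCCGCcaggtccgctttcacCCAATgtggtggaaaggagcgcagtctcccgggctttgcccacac
Mcm6: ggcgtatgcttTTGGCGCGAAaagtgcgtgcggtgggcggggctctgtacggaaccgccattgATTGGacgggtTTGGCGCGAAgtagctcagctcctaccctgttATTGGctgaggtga
Hells: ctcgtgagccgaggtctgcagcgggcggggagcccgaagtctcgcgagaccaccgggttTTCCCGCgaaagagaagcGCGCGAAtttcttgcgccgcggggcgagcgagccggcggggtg
Near the end of the first 5 stretches a CHR element follows 1 or more CCAAT boxes, written ATTGG where it lies on the other strand. Mcm6 and Hells carry E2F-type letters in pairs in place of the CHR element. Rrm1 carries 2 CCAAT boxes and 1 E2F-type match, and no CHR element in this stretch.

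The 8 libraries held 34497509 to 46960005 UMIs each and 96721 barcodes in all with at least 400 genes and under 20% mitochondrial UMIs. The authors' deposited cell list named 27420 of them, and those that clustered with T cells, 20740, are called CD4 T cells here (1772 to 3754 per library). Any pair of libraries shared 19 to 59 barcodes within the limits and 0 to 9 on the cell list. Despite the enrichment, the barcodes on or off the list included 11216 macrophage or monocyte-like cells, 10147 fibroblast-like cells and 4529 B cell-like cells, and these classes are used whole for comparison. Clusters were made without the 42 genes and without other cell cycle genes. Variable genes that correlated above 0.1 with the summed 42 genes were also left out, while genes that correlated negatively were kept. The 42 genes thus did not enter the clustering directly, but they took part in choosing its genes. The populations are therefore not fully independent of them.

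A small fraction of CD4 T cells held transcripts of many of the 42 genes, while many more cells held transcripts of 1 or 2. After each cell was thinned to 1000 UMIs, so that depth was the same for all cells, 9320 of 20143 CD4 T cells had no UMI of any of the 42 genes and 6453 had UMIs of 1 gene. Cells with UMIs of 2 or more genes made up 21.7% and cells with 5 or more made up 4.99% (1006 cells). The number of cells fell from 2342 with 2 genes to 282 with 4, and was 252 with 5 and 224 with 6. Thinning left out 178 of 4263 wildtype untreated, 53 of 3903 mutant untreated, 211 of 6019 wildtype DSS and 155 of 6555 mutant DSS cells. In neutrophil-like cells, which do not divide, 5.42% of 166 cells had 2 or more genes. None of these 166 cells had 5 or more, which allows a share of up to 2.20% (exact 95% binomial interval, for counting error only). The count of 5 or more genes is therefore given beside the count of 2 or more, although it was set after the distribution was seen. Cells with 5 or more genes also held more RNA before thinning, with a median of 4543 to 9103 UMIs per library against 1932 to 2736 in cells with fewer than 2. High doublet scores were less frequent in them, at 1.65 to 7.93% per library, than in cells with fewer than 2 genes, at 5.73 to 11.9%.

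**Figure D1:**
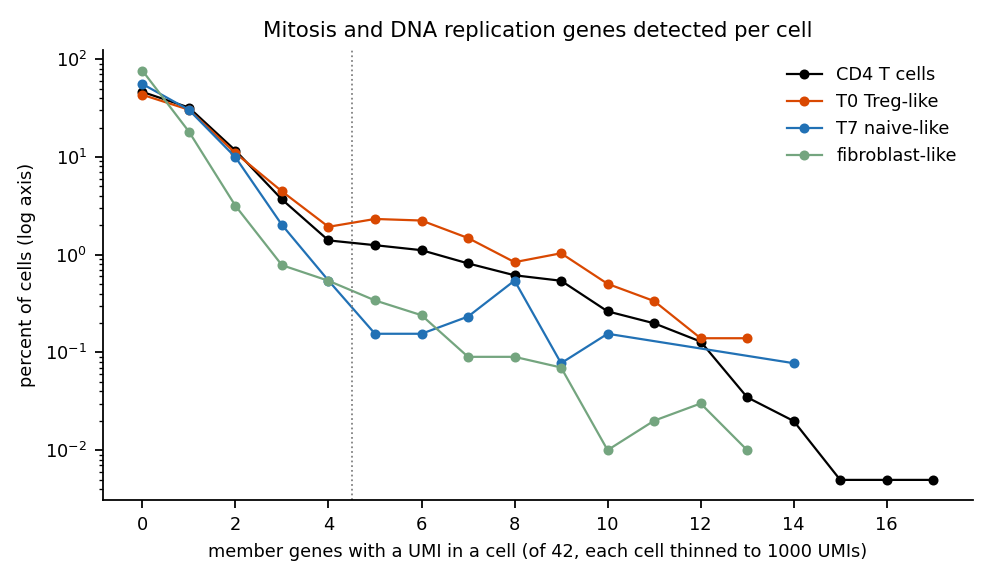
Percent of cells (log axis) by the number of the 42 genes with a UMI after thinning to 1000 UMIs, for CD4 T cells, the Treg-like subset T0, the naive-like subset T7 and fibroblast-like cells, all libraries pooled. In CD4 T cells the percent falls steeply up to 4 genes and more slowly past the dotted line between 4 and 5, from 252 cells with 5 genes to 109 with 9.

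The 42 genes differed in how tightly they tracked the others. Ccna2, the cyclin of S phase and G2, had 71.4% of its 147 UMIs in cells with 5 or more of the other 41 genes (55.9 to 89.5% by library). Bub1, a spindle checkpoint kinase, had 69.8%, but of only 53 UMIs (33.3 to 100% by library), and Aurkb, the kinase of the chromosomal passenger complex, 69.3% of 75 (54.2 to 100%). Birc5, its survivin subunit, had 65.8% of 412 (49.1 to 81%). These ranges overlap, so the 4 genes have no order among themselves. The proliferation marker Mki67 had 52.7% and topoisomerase Top2a 36.6%. Several replication genes had lower values, among them the helicase subunit Mcm3 with 27.6%, the clamp Pcna with 10.5% and the helicase subunit Mcm6 with 9.97%. The lowest value over pooled libraries belonged to a mitosis gene, Cenpa, the histone H3 variant of centromeres, with 8.54%. By library Cenpa spanned 7.11 to 13.7%, Mcm6 3.82 to 12.8% and Pcna 7.46 to 14.6%, so the order of these lowest genes is not set. Cenpa was also the gene with a UMI in the most CD4 T cells, 12.1%, followed by Mcm6 with 10.5%. A UMI of Cenpa, Mcm6 or Pcna alone therefore seldom came from a cell that held several of the other genes.

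**Figure D2:**
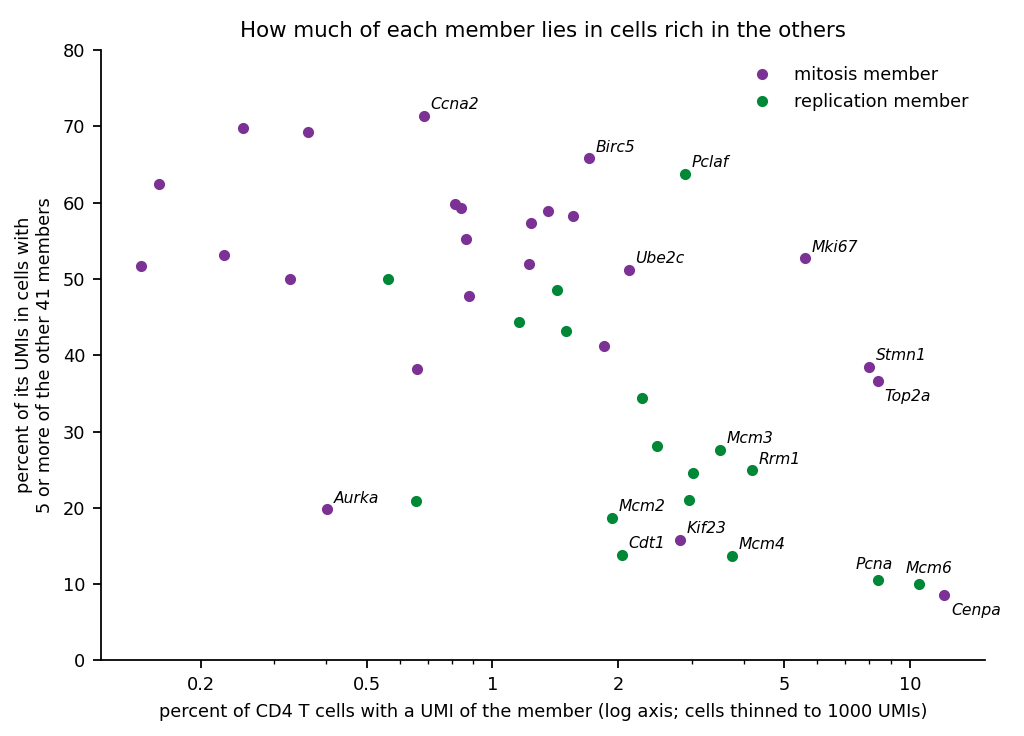
Percent of CD4 T cells with a UMI of each gene (x axis, log scale) against the percent of its UMIs that lay in cells with 5 or more of the other 41 genes (y axis), 1 point per gene, mitosis and replication genes in different colours. Ccna2 lies at the top, and Cenpa, Mcm6 and Pcna at the bottom right.

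The share of such cells differed between T cell subsets within libraries, but its overall level in CD4 T cells did not change detectably with DSS or genotype. Cells with 2 or more genes made up 23.3 and 21.3% of CD4 T cells in wildtype untreated libraries, 20.7 and 16.7% in mutant untreated, 21.6 and 22.5% in wildtype DSS and 21.9 and 23.7% in mutant DSS libraries. The lowest was 1 mutant untreated library, and the groups overlapped. The mean was 1.92 percentage points higher with DSS (exact two-sided permutation test over 4 against 4 libraries, p = 0.229, smallest possible 0.0286) and differed by -1.43 points in the mutant (exact permutation p = 0.486). Both differences rested in part on single libraries and on the way cells were counted. Leaving out 1 library gave 0.66 to 2.86 points for DSS and -2.4 to -0.0954 points for the mutant, in each case nearest to 0 without the second mutant untreated library. For DSS the difference was 0.559 points at 3 or more genes and 0.973 with equal weights for subsets, but 3.02 at 1 or more genes (exact permutation p = 0.0571) and 3.15 at 2000 UMIs (exact permutation p = 0.314). For the mutant it turned to 3.23 points without thinning (exact permutation p = 0.429). Counting mitosis genes alone gave a DSS difference of 0.56 points (exact permutation p = 0.657), and replication genes alone 0.675 points (exact permutation p = 0.371). For 5 or more genes the shares were 6.28, 5.53, 4.71 and 2.65% in untreated and 5.39, 4.38, 4.90 and 5.66% in DSS libraries (exact permutation p = 0.771).

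Among subsets, the naive-like cells T7 (with Lef1 and S1pr1, a regulator of T cell identity and a receptor for leaving tissue, among their leading genes) had the lowest share. It lay below that of the other CD4 T cells in 8 of 8 libraries, with a mean difference of -7.85 points (exact sign-flip permutation over libraries, adjusted p = 0.0273 over the 7 subsets). The follicular helper-like cells T2, which also carried haemoglobin transcripts Hbb-bs and Hba-a1 among their leading genes, were also lower in 8 of 8 libraries, with a mean difference of -3.89 points (exact permutation, adjusted p = 0.0273). Both calls were lost when cells with 1 or more genes were counted and at 2000 UMIs per cell (exact permutation, adjusted p = 0.0547 for T7 and 0.082 for T2 in each), with the same direction. T7 then differed by -9.18 and -11.3 points. With 8 libraries and 7 subsets, 0.0547 is the lowest adjusted p for a subset that is alone at the smallest p. A single subset therefore could not pass, and the lost call does not show a weaker difference in T7. Th17-like cells with Tmem176a and Tmem176b, T3, had a mean difference of -3.49 points and missed the threshold (exact permutation, adjusted p = 0.0547), but passed at 5 or more genes and without thinning (exact permutation, adjusted p = 0.0365 and 0.041). The Treg-like subset T0 was 3.31 points higher in the mean and higher in 6 of 8 libraries, and the Th1-like subset T4 was 3.34 points higher (exact permutation, adjusted p = 0.153 for each). T0 held 3657 cells with Foxp3, Il10 and Gzmb among its leading genes, and T4 2425 cells with Ccl5, Gzma, Ifng, Il12rb2, Klrc1 and Klrk1, of which Klrc1 and Klrk1 encode receptors also found on natural killer cells. The T4 difference passed at 3 or more genes (exact permutation, adjusted p = 0.0365), was 5.5 points at 2000 UMIs (exact permutation, adjusted p = 0.0547) and was 0.0896 points without thinning (exact permutation, adjusted p = 0.992). Every tested non-T class except dendritic cell-like cells had a lower share than CD4 T cells in 8 of 8 libraries (exact sign-flip permutation, adjusted p = 0.0088 for each). The mean differences were -4.87 points in B cell-like cells, -10.6 in plasma cell-like, -12.5 in macrophage or monocyte-like, -15.7 in fibroblast-like and -18 in smooth muscle-like cells. T cells outside the authors' list differed too, by -4.37 points (exact permutation, adjusted p = 0.00879). Each listed cell had at least 1 Cd4 UMI, so these gaps are to the listed T cells and not to T cells in general. In dendritic cell-like cells the mean difference was -1.61 points (exact permutation, adjusted p = 0.305), and -2.37 to -0.889 points leaving out 1 library. It passed as lower at 1 or more genes and at 2000 UMIs (exact permutation, adjusted p = 0.0312 and 0.00879), and as higher, by 19.1 points, without thinning (exact permutation, adjusted p = 0.01). Some of these calls rested on the count of genes and on the depth. For B cell-like cells the call was lost at 5 or more genes and at 2000 UMIs (exact permutation, adjusted p = 0.0904 and 0.18). For plasma cell-like cells it was lost at 3 or more genes (exact permutation, adjusted p = 0.0703), and at 5 or more the difference turned to 0.497 points (exact permutation, adjusted p = 0.237). For unnamed cluster 14 it was lost without thinning (exact permutation, adjusted p = 0.0938).

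**Figure D3:**
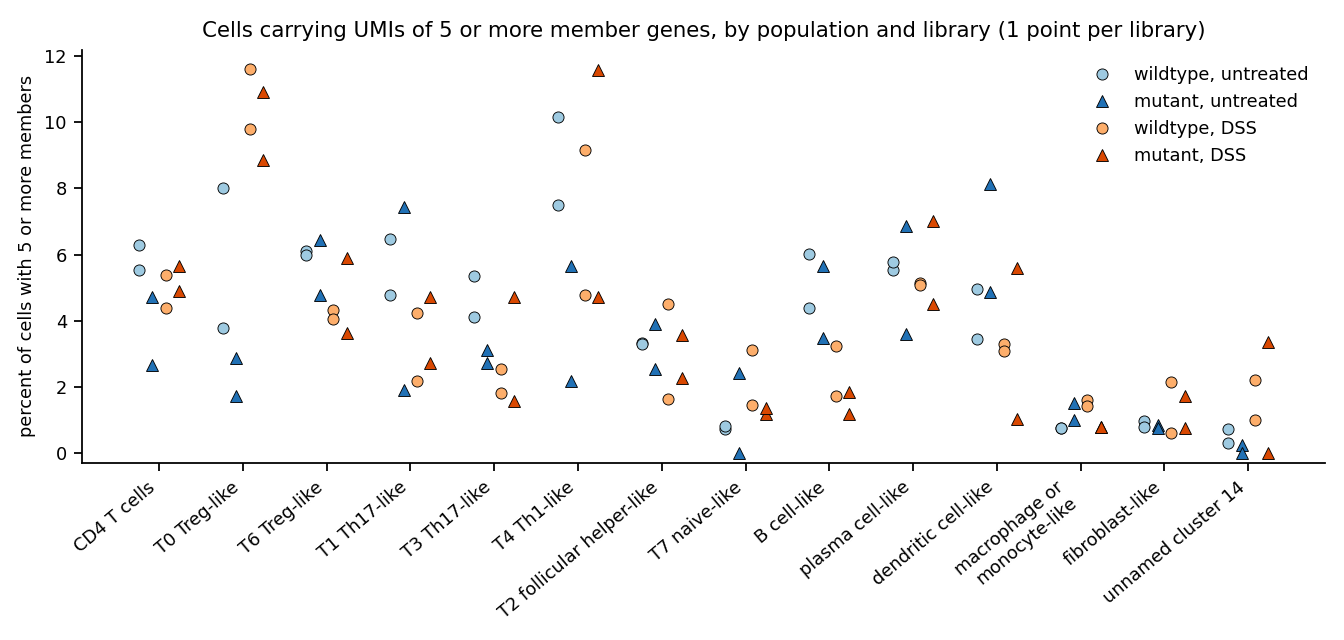
Percent of cells with UMIs of 5 or more of the 42 genes after thinning to 1000 UMIs (y axis), 1 point per library, in CD4 T cells, T cell subsets and other classes (x axis), with untreated libraries in blue and DSS libraries in orange (circles wildtype, triangles mutant). In T0 the 4 DSS libraries sit between 8.88 and 11.6% and the 4 untreated ones between 1.71 and 8.02%. In B cell-like cells the DSS libraries sit below the untreated ones.

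Across all CD4 T cells, 8 of the 42 genes rose with DSS when both genotypes were averaged, and none fell. The test was edgeR's quasi-likelihood test on UMIs summed per library, adjusted over all 11037 genes tested at a threshold of 0.05, and 9.11% of those genes were higher. DESeq2 called 4 of the 42, beside 1288 of all genes in either direction. Without a filter on low counts edgeR called 18 of the 42, for which no share of all genes is given here. The 42 genes had a median log2 fold change of 0.26, against 0.01 over all genes, and 34 were positive. Among mitosis genes 5 of 25 rose (median 0.39), and among replication genes 3 of 17 (median 0.24). Sums over a population cannot tell more dividing cells from more RNA per cell. Leaving out 1 library at a time gave 1 to 11 genes, with 1 without the second wildtype untreated or the second mutant untreated library, 3 without the second mutant DSS library, 4 without the first wildtype untreated or second wildtype DSS library and 5 without the first wildtype DSS library. Cenpa was called without each library in turn, while Cdt1 lost its call in 2 of the 8 fits, Mcm2 in 3, Aurkb in 4, Cdca3, Bub1 and Ccnb1 in 6 and Rrm1 in 7.

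At the centromere, Cenpa stood at 115, 111, 107 and 101 CPM (UMIs per 1000000 UMIs of the population in that library) in untreated libraries and at 169, 164, 184 and 184 in DSS libraries. All DSS libraries were higher, by 0.61 ± 0.07 on the log2 scale (SE; edgeR, adjusted p = 0.00241), and no left-out library ended this call. The rise was also seen in cells that held none or only 1 of the other genes. There 6.57 to 8.53% of cells had a Cenpa UMI in untreated libraries and 12.2 to 14.4% in DSS libraries, with no overlap. Cenpa rose as well in T1, T2, T4 and T6, in dendritic cell-like and fibroblast-like cells and in T cells outside the authors' list. In T1, T2, T4 and T6 this was less firm, since leaving out some single library ended the call in each. Cenpa was not called in T7 or in B cell-like, plasma cell-like and macrophage or monocyte-like cells.

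Among kinases and cyclins, Aurkb stood at 7.97, 5.21, 5.89 and 3.33 CPM in untreated and 10.4, 11.1, 7.53 and 11.9 in DSS libraries (0.84 ± 0.23 log2, edgeR adjusted p = 0.0313). The lowest DSS library lay just below the highest untreated one. The checkpoint kinase Bub1 was measured at 5.42, 5.05, 4.09 and 3.03 CPM without DSS and 8.13, 5.50, 7.26 and 8.10 with it (0.68 ± 0.20, edgeR adjusted p = 0.0382). Ccnb1, cyclin B1, went from 4.62, 4.90, 5.23 and 3.18 CPM to 9.46, 6.05, 6.70 and 9.64 (0.78 ± 0.23, edgeR adjusted p = 0.0420). For Bub1 and Ccnb1 the groups did not overlap. Among partners of the anaphase-promoting complex, Cdca3, which targets the kinase Wee1 for degradation, read 17.1, 15.8, 17.2 and 12.3 CPM without DSS and 22.9, 20.5, 21.8 and 23.8 with it (0.45 ± 0.12, edgeR adjusted p = 0.0323).

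Of the licensing genes, the loading factor Cdt1 stood at 19.4, 17.0, 22.9 and 17.9 CPM in untreated and 28.9, 31.9, 26.0 and 35.2 in DSS libraries (0.59 ± 0.13 log2, edgeR adjusted p = 0.0150). The helicase subunit Mcm2 read 22.3, 19.0, 27.6 and 18.8 CPM against 30.4, 32.5, 33.1 and 32.8 (0.48 ± 0.12, edgeR adjusted p = 0.0245). DSS libraries were higher throughout for both. For nucleotide supply, Rrm1, the large subunit of ribonucleotide reductase, read 56.9, 53.3, 47.3 and 45.9 CPM against 63.9, 61.6, 61.0 and 73.4 (0.29 ± 0.09, edgeR adjusted p = 0.0438), also without overlap. In all, 8 of the 42 genes had every DSS library above every untreated one, as did 17.5% of all genes tested.

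The genes with the highest counts in their roles mostly missed the threshold. Top2a, which untangles sister chromatids, was measured at 191, 181, 170 and 112 CPM in untreated and 185, 175, 170 and 166 in DSS libraries (0.03 ± 0.11 log2, edgeR adjusted p = 0.883). Its lowest value was again in 1 mutant untreated library. Mki67 read 154, 141, 146 and 91.7 CPM against 157, 163, 96.7 and 183 (0.11 ± 0.19, edgeR adjusted p = 0.709). The ubiquitin-conjugating enzyme Ube2c read 48.3, 43.5, 43.7 and 22.6 CPM against 61.2, 46.1, 49.95 and 62.3 (0.43 ± 0.18, edgeR adjusted p = 0.116). The microtubule regulator Stmn1 read 234, 232, 201 and 151 CPM against 189, 159, 162 and 177 (-0.31 ± 0.10, edgeR adjusted p = 0.0612). For Mcm6 the values were 135, 145, 135 and 131 against 131, 121, 131 and 139 CPM, and for Pcna 100.5, 83.3, 87.5 and 77.6 against 104, 119, 96.6 and 114 CPM (edgeR adjusted p = 0.232 and 0.105). Cyclin Ccnb2 read 19.0, 13.3, 18.2 and 8.63 CPM against 18.5, 19.3, 16.04 and 27.1, and the passenger subunit Birc5 42.4, 45.2, 42.02 and 22.3 against 54.8, 39.5, 43.5 and 47.5 (edgeR adjusted p = 0.237 and 0.347). Leaving out 1 library gave log2 fold changes of 0.24 to 0.69 for Ube2c, 0.19 to 0.7 for Ccnb2 and 0.05 to 0.49 for Birc5. The chromatin remodeller Hells read 40.5, 36.5, 51.5 and 35.3 CPM against 48.9, 31.4, 41.02 and 38.8 (edgeR adjusted p = 0.685). In each of these genes the treated and untreated libraries overlapped.

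Within each genotype fewer genes passed. With 2 libraries against 2, none of the 42 passed for DSS in wildtype, where 0.326% of all genes did. By edgeR 5 of the 42 had an unadjusted p under 0.05. DESeq2 called 1 of the 42, beside 194 of all genes in either direction. In the mutant 1 passed, Cenpa, by 0.73 ± 0.10 on the log2 scale (edgeR adjusted p = 0.0132), where 5.33% of all genes passed. Leaving out either of 2 libraries ended that call, where an arm of 1 library takes its spread from the other groups. The difference of the DSS effect between genotypes passed for none of the 42 genes, and for 0% of all genes.

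The DSS response of the 42 genes was much larger in the Treg-like subset T0. Of 41 genes tested, 33 rose and none fell, with a median log2 fold change of 1.10 against 0.01 over all 8359 genes, of which 6.34% were higher (edgeR, same test). In mitosis 22 of 24 genes rose (median 1.35) and in replication 11 of 17 (median 0.95). Genes that did not pass were Aurka, Kif23, Ccne2, Tyms, Mcm4, Mcm6, Pcna and Tk1, and Kif20a was too low to test. Of the 41 genes, 34 met the limit on low counts (10 UMIs at the median depth in at least 2 libraries) in untreated libraries alone, and 27 of these rose. The other 7 (Bub1b, Bub1, Aurka, Cdc20, Plk1, Aurkb and Ccnb1) were tested only through their DSS libraries. In 28 of the 42 every DSS library lay above every untreated one, compared with 11.3% of all genes.

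Mki67 in T0 stood at 157, 81.8, 68.5 and 65.2 CPM in untreated and 290, 306, 167 and 265 in DSS libraries (1.47 ± 0.19 log2, edgeR adjusted p = 0.000156). Top2a read 205, 153, 93.3 and 67.2 CPM against 311, 298, 237 and 226 (1.11 ± 0.13, edgeR adjusted p = 7.46e-05). In both the first wildtype untreated library was the highest of the untreated ones and still below every DSS library. Ube2c read 53.7, 35.1, 26.7 and 19.8 CPM against 115, 75.4, 102 and 90.6 (1.53 ± 0.20, edgeR adjusted p = 0.000226). Nusap1, which bundles spindle microtubules near chromosomes, read 13.1, 17.5, 7.61 and 17.8 CPM against 61.8, 51.0, 40.4 and 53.8 (1.88 ± 0.24, edgeR adjusted p = 0.000178). Its 4 DSS libraries all lay above the untreated ones. Birc5 read 57.2, 36.5, 26.7 and 21.7 CPM against 101, 80.3, 73.8 and 69.4 (1.21 ± 0.18, edgeR adjusted p = 0.000677). Leaving out 1 library gave log2 fold changes in T0 of 1 to 1.25 for Top2a, 1.35 to 1.71 for Ube2c and 1.1 to 1.41 for Birc5. For Mcm6, described below, they were -0.2 to -0.02.

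The cyclin Ccnb2 rose by 1.34 ± 0.27 on the log2 scale (edgeR adjusted p = 0.00495). It read 21.5, 10.2, 9.52 and 7.90 CPM in untreated and 27.7, 28.0, 27.7 and 39.0 in DSS libraries. Ccnb1 and Plk1, the polo-like kinase that drives entry into mitosis, passed as well, but from so few untreated UMIs that no fold is given. Ccnb1 had 3, 1, 2 and 2 UMIs in untreated and 68, 23, 23 and 73 in DSS libraries (3.58, 1.46, 3.81 and 3.95 against 23.0, 10.2, 13.3 and 15.2 CPM). Plk1 had 2, 1, 0 and 1 UMIs against 27, 19, 18 and 35 (2.39, 1.46, 0 and 1.98 against 9.12, 8.43, 10.4 and 7.29 CPM). Cenpa read 109, 81.8, 103 and 109 CPM against 189, 182, 179 and 204 (0.87 ± 0.12, edgeR adjusted p = 0.000404). None of these 4 genes overlapped between the treatments.

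In replication, Rrm1 read 64.4, 38.0, 26.7 and 21.7 CPM in untreated and 92.6, 84.3, 86.5 and 96.5 in DSS libraries (1.31 ± 0.18 log2, edgeR adjusted p = 0.000274). Mcm3 read 60.8, 46.8, 41.9 and 43.5 CPM against 115, 96.7, 111 and 85.8 (1.04 ± 0.16, edgeR adjusted p = 0.000762). Both were without overlap. Hells read 46.5, 20.5, 24.7 and 13.8 CPM against 52.0, 47.0, 54.8 and 46.3 (0.91 ± 0.23, edgeR adjusted p = 0.0161), with 1 DSS library just below the highest untreated one. Stmn1 rose by 0.47 ± 0.12 (edgeR adjusted p = 0.0161), from 241, 228, 135 and 107 CPM to 290, 245, 201 and 224, with overlap. For each of these last 2 genes leaving out either of 2 libraries ended the call. Helicase subunits were uneven: Mcm6 read 178, 136, 160 and 188 CPM without DSS and 158, 149, 154 and 158 with it (-0.13, edgeR adjusted p = 0.514), while Mcm2, Mcm3, Mcm5 and Mcm7 rose. Pcna read 111, 80.4, 81.8 and 69.2 CPM against 111, 121, 103 and 111 (0.35, edgeR adjusted p = 0.0907).

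**Figure D4:**
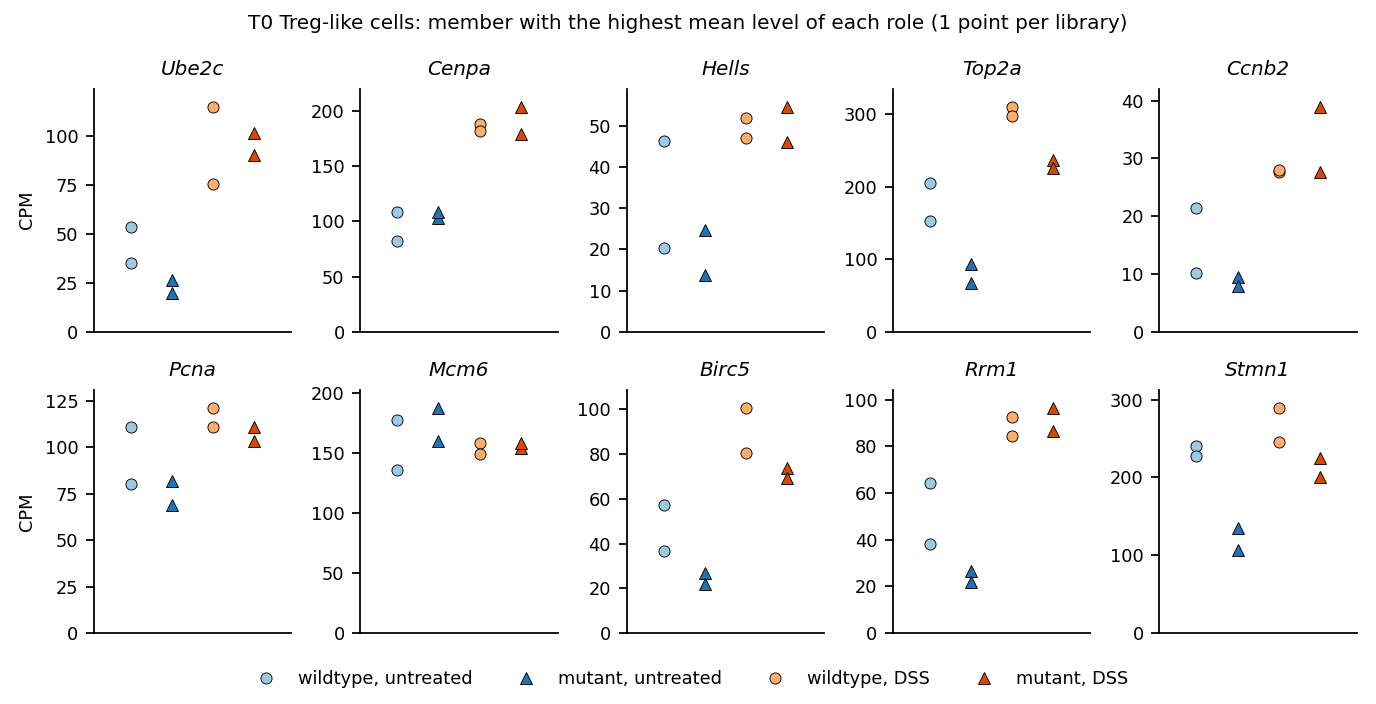
CPM (y axis, from 0) in the Treg-like subset T0 of the gene with the highest mean count in each of the 10 roles, 1 point per library, with the 4 groups side by side (circles wildtype, triangles mutant; blue untreated, orange DSS). Top2a, Birc5, Ube2c, Cenpa, Rrm1 and Ccnb2 lie higher in all 4 DSS libraries, while Mcm6 and Pcna overlap between the treatments.

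The share of T0 cells with 5 or more genes was 8.02, 3.78, 2.87 and 1.71% in untreated and 11.6, 9.80, 8.88 and 10.9% in DSS libraries, a mean difference of 6.21 points. The groups did not overlap, which gives the smallest p of this design (exact permutation p = 0.0286), and the adjusted p over 16 populations was 0.229. At 2 or more genes the T0 means were 28% with DSS and 20% without, a difference of 7.99 points (exact permutation p = 0.0286, adjusted p = 0.152). Fibroblast-like cells reached the same p and adjusted p at 2 or more genes, with 6.97% against 4.52%. T0 grew from 180 to 282 cells per untreated library to 521 to 871 per DSS library. Summed markers were not level across T0: the 7 Treg markers read 3501 to 4079 CPM in untreated and 3096 to 3520 in DSS libraries, and the 7 Th1 markers 381 to 706 against 178 to 283. The 7 B cell markers were at 7.15 to 17.1 against 7.08 to 13.8 CPM, and the 10 macrophage or monocyte markers at 644 to 820 against 682 to 953. The part of the Th1 markers and of cell numbers in the result was not tested. Without the barcodes of the highest doublet scores, 34 of 41 genes rose (7.5% of all genes were higher). Among T0 cells with a Foxp3 UMI 27 of 39 rose (4.37% of all genes), and among those without one 15 of 31 (2.8% of all genes). For these counts, and for the count without high doublet scores, the limit on low counts was not checked within each treatment.

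The DSS effect was larger in T0 than in the other CD4 T cells for 30 of the 42 genes by a test of the difference itself (edgeR with library as a block, 7.89% of all genes differing in either direction). Of these 30, Ccnb1, Cdc20, Aurkb and Bub1b were below the limit on low counts in untreated T0 libraries. The median difference over the 42 genes was 1.17 on the log2 scale. For Mki67 it was 1.81 ± 0.17 (edgeR adjusted p = 5.51e-09), for Top2a 1.33 ± 0.15 (edgeR adjusted p = 4.65e-07) and for Stmn1 0.97 ± 0.13 (edgeR adjusted p = 8.03e-06). For Cenpa it was 0.33 ± 0.12 and missed the threshold (edgeR adjusted p = 0.0918). Splitting on Foxp3 in place of the cluster gave the same direction, but it is not separate support. Of the 3452 CD4 T cells with a Foxp3 UMI, 2207 were T0 cells. Foxp3 UMIs were counted before thinning, so cells with more RNA were more likely to hold one. The part of depth in this split was not tested. In CD4 T cells with a Foxp3 UMI 22 of 41 genes rose with DSS (4.75% of all genes higher). In cells without one 2 rose, Cenpa and Cdt1, and Stmn1 fell (13.9% of all genes passed in either direction). The difference between those with and without a Foxp3 UMI passed for 22 of 42 genes, all larger with Foxp3 (4.87% of all genes). It fell to 11 genes without the second wildtype untreated library. The limit on low counts was not checked within each treatment for this split.

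Compared with the other Treg-like subset T6, which carries Il1rl1 and Klrg1, 13 of 33 genes responded more in T0 (4.69% of all genes), with 7 to 21 genes as single libraries were left out. The lowest count came without the first mutant untreated library and the highest without the first wildtype untreated library. Compared with the Th17-like subset T1, 18 of 37 responded more (7.60% of all genes; 11 without the second wildtype untreated library), and compared with the Th1-like T4, 6 of 36 (1.99% of all genes; 2 without the second wildtype untreated library). Those 6 were Mki67, Top2a, Nusap1, Pclaf, Stmn1 and Rrm2. Bub1, among the 18 genes of the comparison with T1, was below the limit on low counts in untreated T0 libraries. No gene responded less in T0 in any of these comparisons. In CD4 T cells with an Il17a UMI 6 of 41 genes rose with DSS (Cenpa, Rrm1, Mcm2, Rrm2, Cdt1 and Cdca3; 3.02% of all genes higher).

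Few of these genes passed for genotype. In CD4 T cells none of the 42 passed for mutant against wildtype in untreated mice, after DSS or averaged over treatments (0% of all genes in each, by edgeR). With no call among all 11037 genes, these comparisons do not show that the 42 were unmoved. Unadjusted p-values were under 0.05 for 5, 0 and 3 of the 42 genes. None of the 42 passed by DESeq2, which called 18 of all genes in untreated mice and 0 in the other 2 comparisons. Averaged over treatments, Mki67 differed by -0.26 ± 0.19 and Top2a by -0.26 ± 0.11 on the log2 scale (edgeR adjusted p = 1 for both). In T0, Top2a was lower in the mutant (log2 fold change -0.79 ± 0.13, edgeR adjusted p = 0.036; 0.0359% of all genes passed). Its values, given above, were lowest in both mutant libraries of each treatment. Leaving out any of 6 libraries, or the barcodes with high doublet scores, ended this call, and the 41 genes had a median of -0.42. Stmn1 was called beside Top2a with DESeq2, and also with nearby numbers in the sample names as a replicate block. In T0 the 42 genes summed to 2107 and 1470 CPM in wildtype and 1231 and 1185 in mutant untreated libraries. After DSS the sums were 3189 and 2824 against 2545 and 2744 CPM. These sums, lower in both mutant libraries of each treatment, were not tested. No gene passed in T1, T2, T3, T6, B cell-like cells or the other tested classes, where 0 to 0.0169% of all genes passed, nor in T4 (0.029%) and T7 (0.0751%).

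In B cell-like cells taken as a whole the 42 genes went the other way. Of 40 tested, 20 fell with DSS and none rose, where 8.94% of all genes were lower (edgeR). The tested genes had a median log2 fold change of -0.94 against 0.01 over all genes. DESeq2 called 9, beside 494 of all genes in either direction. Leaving out 1 library gave 10 to 25, with 10 without the second wildtype DSS or first mutant DSS library and 13 without the second wildtype untreated library. Mitosis genes made up most of them, 16 of 23 (median -1.17), against 4 of 17 replication genes (median -0.43). Stmn1 read 236, 213, 252 and 170 CPM in untreated and 110, 89.2, 98.8 and 62.2 in DSS libraries (-1.32 ± 0.16, edgeR adjusted p = 1.08e-05). Mki67 read 154, 154, 171 and 101 CPM against 78.7, 60.0, 51.7 and 50.2 (-1.35 ± 0.17, edgeR adjusted p = 1.99e-05). Top2a read 223, 179, 191 and 138 CPM against 102, 76.3, 77.9 and 117 (-1.09 ± 0.16, edgeR adjusted p = 8.78e-05). Of the 40 genes, 31 met the limit on low counts in DSS libraries alone, and 17 of these fell. The DSS libraries were lower throughout for Stmn1, Mki67 and Top2a, and for 11 of the 42 in all (6.88% of all genes tested).

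Of the replication genes, Gmnn, the inhibitor of Cdt1, fell from 76.4, 43.7, 65.2 and 37.5 CPM to 26.9, 22.7, 28.5 and 28.1 (-1.11 log2, edgeR adjusted p = 0.00254), without overlap. The clamp-associated factor Pclaf fell from 175, 113, 171 and 85.9 CPM to 102, 51.9, 70.9 and 32.1 (-1.09, edgeR adjusted p = 0.00278), with overlap. None of the 6 helicase genes Mcm2 to Mcm7 passed, and Cenpa, at 167, 175, 140 and 183 against 133, 185, 160 and 183 CPM, differed by -0.11 (edgeR adjusted p = 0.602). The number of B cell-like cells was 373 to 1460 per untreated and 174 to 936 per DSS library.

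Germinal centre markers moved with this result. The 5 markers summed to 121 to 156 CPM in untreated and 70.3 to 82.6 in DSS libraries, while the 7 B cell markers read 3219 to 3525 against 3092 to 3503. Cells with 5 or more of the 42 genes made up 34.8, 24.2, 31.7 and 22.9% of B cell-like cells with a UMI of these markers in untreated, and 20, 15.4, 8.11 and 4.76% in DSS libraries, from 20 to 180 cells each. Among B cell-like cells with no such UMI the share was 0.38 to 1.53%. Restricted to those cells, 23 genes could be tested, of which Mcm2 rose and Stmn1 fell (9.69% of all genes passed in either direction). In these 4003 of the 4529 B cell-like cells the sum of the 42 genes did not fall. It was 908.3, 907.9, 963.9 and 812.5 CPM in untreated and 1168, 1036, 966.7 and 1483 in DSS libraries. The DSS effect was lower in B cell-like cells than in CD4 T cells for 29 of 42 genes by the test of the difference (edgeR, 5.37% of all genes, median -1.14 log2), and for 19 without the first mutant DSS library. Of these 29, Ccnb1, Aurkb, Plk1, Cdk1 and Cdc20 were below the limit on low counts in DSS libraries of B cell-like cells. Kif20a, also among the 29, had 7 UMIs in those libraries together.

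Outside lymphocytes, mitosis and replication genes also rose in an unnamed cluster of 2228 cells, cluster 14, led by the endothelial and mural genes Fabp4, Igfbp7, Plvap, Rgs5 and Flt1. There 13 of 36 genes rose with DSS and none fell (edgeR; 2.45% of all genes were higher). Only 20 of the 36 met the limit on low counts in untreated libraries alone, and 3 of these rose. The other 16 were tested only through their DSS libraries. Ube2c read 8.87, 7.52, 4.46 and 1.12 CPM in untreated and 37.7, 48.8, 20.9 and 19.0 in DSS libraries (2.53 ± 0.31 log2, edgeR adjusted p = 0.00165). Cdk1, the kinase that drives mitosis, was among those 16, with 8, 3, 8 and 1 UMIs in untreated and 11, 16, 19 and 10 in DSS libraries (4.73, 1.73, 2.97 and 0.560 against 18.03, 24.4, 13.7 and 10.6 CPM). Every DSS library was higher for both, and for 21 of the 42 genes (6.96% of all genes). Leaving out single libraries gave 2 to 15 genes, with 2 without the second wildtype untreated library, 3 without the second mutant untreated or first wildtype DSS library and 8 without the first wildtype untreated or first mutant DSS library. The rise was uneven within the cluster. In its cells with more endothelial than smooth muscle marker UMIs (87 to 394 per library) the 42 genes summed to 603, 495, 515 and 397 CPM in untreated and 957, 574, 918 and 744 in DSS libraries, and 5 genes rose (2.35% of all genes were higher). In the 11 to 79 cells per library with more smooth muscle marker UMIs, too few to test, the sums were 439, 469, 509 and 261 CPM against 2381, 2254, 774 and 993. Endothelial markers read 2302 to 2938 CPM in untreated and 2623 to 2901 in DSS libraries, and smooth muscle markers 642 to 1763 against 690 to 2257. Markers listed for naive T cells, such as Klf2, which endothelium also expresses, read 1486 to 2308 CPM without DSS and 752 to 1183 with it. The part of these markers in the result was not tested.

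In fibroblast-like cells 8 of 42 genes rose (Cdk1, Cenpa, Mcm2, Cdt1, Tk1, Cdca3, Ube2c and Mcm3), where 10.1% of all genes were higher. Leaving out 1 library gave 1 to 12 genes there, with 7 or more only without the first DSS library of either genotype. In macrophage or monocyte-like cells 5 of 40 rose (Pcna, Mcm6, Ccna2, Pclaf and Ccne2), where 12.3% of all genes were higher, a share close to theirs, and leaving out 1 library gave 0 to 5 genes, with 0 without the second wildtype untreated or first mutant untreated library. In dendritic cell-like cells Cenpa rose and Stmn1, Cenpe, Mki67, Pclaf and Tyms fell (6 of 36; 14.5% of all genes in either direction; 2 to 5 genes without single libraries, the lowest without the first mutant untreated library). Counts in either direction were 1 of 33 in T1 (4.22% of all genes), 1 of 36 in T2 (4.53%), 2 of 31 in T3 (7.77%), 2 of 35 in T4 (5.32%) and 1 of 32 in T6 (2.49%). None of 20 passed in T7 (3.76%), of 40 in plasma cell-like cells (6.86%), of 12 in smooth muscle-like cells (3.68%) or of 15 in unnamed cluster 21 (2.08%). In T1, T2, T3, T4, T6, T7 and unnamed cluster 21 these small counts moved as single libraries were left out. Among T cells outside the authors' list 10 of 42 passed, 8 higher and 2 lower (21% of all genes), and leaving out 1 library gave 1 to 9, with 1 without the second untreated library of either genotype. The counts in dendritic cell-like cells and in T cells outside the authors' list were, like that of macrophage or monocyte-like cells, close to the share of all genes. Squamous epithelium-like cells, with 1 to 179 per library, were therefore not tested. There the 42 genes summed to 433, 190, 1015 and 2944 CPM in untreated and 3251, 2658, 2331 and 1957 in DSS libraries, with overlap.

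**Figure D5:**
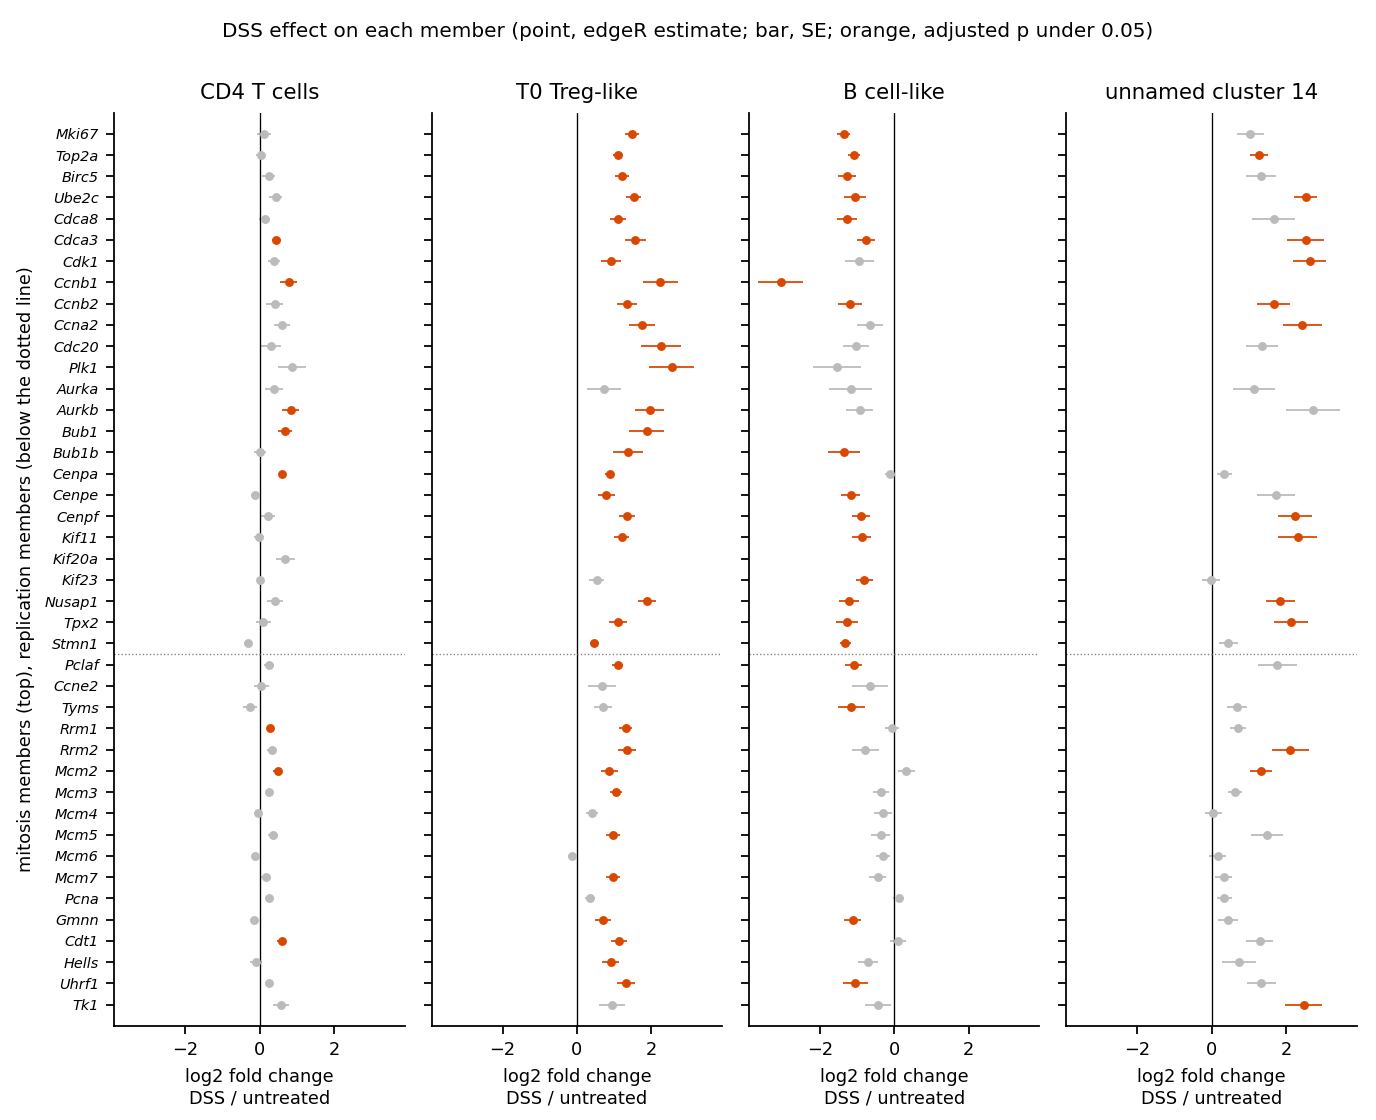
Log2 fold change of DSS against untreated, genotypes averaged (x axis), with its standard error, for each gene (y axis) in CD4 T cells, T0, B cell-like cells and unnamed cluster 14, with genes of adjusted p under 0.05 in orange. The 33 orange points of T0 lie right of 0, and the 20 of B cell-like cells left of it. Points with wide error bars, most of all in cluster 14, are genes with few UMIs in one treatment, whose fitted fold change is no firm size.

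Genes that act around these 42 were followed by 4 lists. For the listed genes the limit on low counts was not checked within each treatment, in T0 or in the populations that follow. Some of their counts and folds may therefore rest on few UMIs in one treatment. In T0, where 6.34% of all genes were higher and 7.41% lower, 22 of 37 other mitosis genes tested rose with DSS, led by Cks1b (1.64 log2), Hmgb2 (0.70), Kif15 (1.65), Tubb5 (0.72) and Tuba1b (0.89), and 1 fell, Pttg1, which encodes securin. Among other replication genes 12 of 29 rose, among them the single-strand binding subunit Rpa3 (1.39), the chromatin assembly factor Chaf1a (1.69) and the flap nuclease Fen1 (1.03). Of 13 genes of G1 entry, E2f2 (1.19) and Mybl2 (1.82) rose and cyclin Ccnd2 fell (-0.49). Of 13 cell cycle brakes, Cdkn1a, the p21 inhibitor of cyclin-dependent kinases, fell by 0.92 on the log2 scale, and the antiproliferative genes Btg1 and Btg2 by 0.53 and 0.51.

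In all CD4 T cells, where 9.11% of all genes were higher and 9.18% lower, the lists gave few calls, for the mitosis and replication genes at shares close to or below these. Of 42 other mitosis genes tested 2 rose, Ncapd2 (0.70 log2) and Kif22 (0.63), and Pttg1 fell (-0.55). Of 31 other replication genes 3 rose, Rpa3 (0.66), Pola2 (0.76) and Fen1 (0.41). E2f2 rose (0.49) and Ccnd3 fell (-0.51) among 15 genes of G1 entry, and Rbl2 rose (0.36) while Cdkn1a (-0.62), Cdkn1c (-0.81) and Rb1 (-0.34) fell among 16 brakes. In B cell-like cells 17 of 32 other mitosis genes fell and none rose, and 5 of 27 other replication genes fell, where 8.94% of all genes were lower. No gene of the 4 lists differed between mutant and wildtype in CD4 T cells (edgeR, treatments averaged).

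Within CD4 T cells, a panel of 26 genes of T cell state was compared between cells with 2 or more of the 42 genes and the remaining cells of the same library, after thinning. None passed after adjustment. With 26 genes and 8 libraries, a gene alone at the smallest p could not pass, so this does not show that the panel was level. The survival receptor Il7r was the closest, with a UMI in 18.8% of the former and 22.9% of the latter cells, lower in 8 of 8 libraries (exact sign-flip permutation p = 0.00781, adjusted p = 0.135). At 5 or more genes it was found in 10.2% against 22.6%, a difference of -12.4 points in 8 of 8 libraries, and Tcf7 (-5.15), Ccr7 (-2.90) and S1pr1 (-2.13), genes of naive and recirculating T cells, were also lower in 8 of 8. These 4 reached the smallest p of the design (exact permutation p = 0.0078) and an adjusted p of 0.0508. Foxp3 was found in 7.50% against 7.22% and Il17a in 18.5% against 16.9% of cells with 2 or more genes and the rest. At 5 or more genes both differences changed sign, with Foxp3 in 6.98% against 7.29% and Il17a in 16.8% against 17.2%. Without thinning, Il7r (8.57 points), Tcf7 (8.32), Ccr7 (8.51) and S1pr1 (8.92) were higher in place of lower in cells with 2 or more genes, and 26 of 26 genes passed.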

How the data were processed

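Members and gene lists were chosen with earlier results of these data known. The authors deposited UMI counts per gene and barcode for 8 libraries and a list of cells; per the submitters' processing notes, Cell Ranger 3.1.0, Seurat 4.0.1 and the build mm10 were used. In 7 tables genes stood as row numbers and were named from the authors' deposited list of gene symbols, whose order was tested on the table that holds gene identifiers. Barcodes with at least 400 genes and under 20% mitochondrial UMIs were clustered (scanpy 1.11.5, leidenalg 0.10.2, 2000 variable genes without cell cycle genes, 30 components, 15 neighbours, resolution 1.0) and named from marker lists. Scrublet's own threshold marked 2 of 96721 barcodes and removed none; leaving out the 10% of highest scores per library served as an alternative. Counts were summed per library in populations of at least 50 cells in every library and tested over all genes with edgeR 4.0.16 (filterByExpr, TMM, quasi-likelihood, Benjamini-Hochberg, 0.05), with DESeq2 1.42.0 as an alternative, after a test on simulated data. Shares used cells thinned at random to 1000 UMIs and exact permutation tests. Seed 1 was the setting for clustering and doublet scores, not for thinning. Values in every library are given for genes called in CD4 T cells, for the gene of the highest mean count in each role, and for further genes chosen after their values were seen. In GENCODE M21, 19 of the 42 genes overlap another annotated gene, among them Mcm7, Ccna2, Ube2c, Nusap1, Pclaf and Tk1, and whether counting used strand is not given in the sources used here.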

Additional observations from a re-analysis of the deposited data

Results flagged for a closer look

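Some DSS effects differed between populations by a test of the difference itself (edgeR with library as a block). These 6 pairs of populations were chosen after their DSS effects had been seen. Beside each count stands the share of all genes differing in either direction. The effect was larger in the Treg-like subset T0 than in the other CD4 T cells for 30 of 42 genes (7.89%). It was larger in T0 than in the Treg-like subset T6 for 13 of 33 (4.69%). Against the Th17-like subset T1 it was larger for 18 of 37 (7.6%), and against the Th1-like subset T4 for 6 of 36 (1.99%). It was larger in CD4 T cells with a Foxp3 UMI than in those without for 22 of 42 (4.87%). In B cell-like cells it was lower than in CD4 T cells for 29 of 42 (5.37%). What lies behind these differences was not tested.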

How the results depend on the processing

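Each group had 2 libraries, and subset sums reached down to 194745 UMIs, so genes such as Kif20a and Plk1 rest on few counts. Library numbers follow accession order only. The sample names hold nearby numbers for wildtype and mutant libraries of one treatment, and the labels do not say that these pair libraries. Over genes in CD4 T cells, the differences between the 2 wildtype and between the 2 mutant libraries ordered this way correlated by 0.159 untreated and 0.071 with DSS, and in the other populations by -0.033 to 0.229 and -0.018 to 0.314. With these numbers as a replicate block, called genes for mutant against wildtype stayed at 0 in CD4 T cells and went from 1 to 2 in T0 (Top2a and Stmn1); the DSS comparison could not be fitted so, since each block lies within 1 treatment. Scrublet's own threshold gave no usable set of doublets, so a repeat without the barcodes it marks was not run. Settings chosen after seeing the data were 5 or more genes, removal of high doublet scores, splits on Foxp3, Il17a, germinal centre and endothelial UMIs, equal weights for clusters, the replicate block and the comparisons of 2 populations.

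Of the alternatives to values that answer a comparison, 392 stayed close to the main value, 66 moved, 22 lost and 8 gained the threshold and 6 changed direction. For values of single genes these numbers were 669, 59, 61, 13 and 15. In CD4 T cells, called genes for DSS in wildtype went from 0 to 1 (DESeq2) or 4 (no filter), and for DSS in the mutant from 1 to 17 (no filter), 2 (without high doublet scores) or 0 to 5 (leaving out 1 library). For DSS averaged they went from 8 to 4 (DESeq2), 18 (no filter) or 1 to 11 (leaving out 1 library). In B cell-like cells 20 became 9 (DESeq2), 2 (without germinal centre marker UMIs) or 10 to 25 (leaving out 1 library). In T0 33 became 15 without a Foxp3 UMI. In cluster 14, 13 became 25 (no filter), 5 (endothelial-leaning cells) or 2 to 15 (leaving out 1 library). The sum over these populations, 102, became 67 with DESeq2 and 45 to 94 when 1 library was left out. For mutant against wildtype, T0 went from 1 to 2 (DESeq2), 3 (no filter) or 0 (without high doublet scores, without a Foxp3 UMI, with T6, or leaving out 1 library, 0 to 1), cluster 14 from 0 to 1 (no filter), and the sum from 1 to 2 (DESeq2), 4 (no filter) or 0 to 1 (leaving out 1 library). Leaving out 1 library moved the differences between populations to 7 to 21 (T0 and T6), 11 to 23 (T0 and T1), 2 to 13 (T0 and T4), 11 to 23 (Foxp3) and 19 to 28 (B cell-like and CD4 T cells).

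Among shares of cells, calls were lost for T2 and T7 at 1 or more genes and at 2000 UMIs, for B cell-like cells at 5 or more and at 2000 UMIs, for plasma cell-like cells at 3 and at 5 or more, and for cluster 14 without thinning. Calls were gained for T1 and T6 without thinning, T3 at 5 or more and without thinning, T4 at 3 or more, and dendritic cell-like cells at 1 or more, at 2000 UMIs and, in the other direction, without thinning. Mutant minus wildtype reversed from -1.43 to 3.23 points when cells were not thinned. Against the other CD4 T cells, T1 went to -0.742 points at 5 or more genes and 3.09 not thinned. T2 went to -2.99 at 1 or more genes, to -4.97 at 2000 UMIs and to -4.4 to -3.47 leaving out 1 library. T3 went to -1.92 at 5 or more, -4.11 not thinned and -4.37 to -2.74 leaving out 1 library. T4 went to 3.47 at 3 or more, T6 to -0.538 at 2000 UMIs and 4.67 not thinned, and T7 to -9.18 at 1 or more, -11.3 at 2000 UMIs and -8.64 to -7.32 leaving out 1 library. Against CD4 T cells, B cell-like cells went to -1.5 at 5 or more and -2.1 at 2000 UMIs. Dendritic cell-like cells went to -5.55 at 1 or more, 0.567 at 3 or more, -8.51 at 2000 UMIs and 19.1 not thinned. Plasma cell-like cells went to -1.62 at 3 or more and 0.497 at 5 or more, and cluster 14 to -3.24 not thinned. In the panel 26 of 26 genes passed when cells were not thinned, and Lag3 (7.26), Ccr7 (8.51), Tcf7 (8.32), S1pr1 (8.92) and Il7r (8.57) then reversed to higher. At 5 or more genes Foxp3 reversed to -0.307 and Il17a to -0.37. Leaving out 1 library gave a range across 0 for Foxp3 in the panel (-0.116 to 0.603), Hells (-0.28 to 0.06) and Top2a (-0.1 to 0.18) in CD4 T cells, Rrm1 in B cell-like cells (-0.23 to 0.08) and Mcm6 in cluster 14 (-0.12 to 0.38). The cause was not tested in any of these.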
